A study of Bos taurus with 3 samples.

Results

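The expression of 6 enzymes of fatty acid synthesis, desaturation and ketone body use was followed through the onset of lactation in bovine mammary tissue. They were acetyl-CoA synthetase (ACSS2), acetyl-CoA carboxylase alpha (ACACA), fatty acid synthase (FASN), stearoyl-CoA desaturase (SCD), acetoacetyl-CoA synthetase (AACS) and 3-hydroxybutyrate dehydrogenase (BDH1). The set was chosen by name for these roles, and all 6 were among the 9154 genes with a tag in at least 1 library. The tissue came from biopsies of 18 Holstein cows in the second parity, 6 at each of 3 times relative to parturition. The cows were sampled at day −35, when the gland is dry (−35 d), at day −7, when pre-colostrum is secreted (−7 d, stage I of lactogenesis), and at day 3 after parturition, when colostrum is produced (+3 d, stage II of lactogenesis). The labels give no treatment and no genotype, and tissue of all 6 cows sampled together was pooled ahead of RNA isolation, so that each time had 1 library and the spread among cows was not measured. Stage I is examined here by comparing −7 d with −35 d, stage II by comparing +3 d with −7 d, and the whole span by comparing +3 d with −35 d. Biopsies hold all cell types of the gland, and fewer cells of a type and less RNA per cell cannot be told apart.

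Ruminants make the short and medium chains of milk fat inside the mammary gland. The carbon comes from blood acetate and 3-hydroxybutyrate rather than from glucose. ACSS2 joins acetate to coenzyme A, ACACA turns acetyl-CoA into malonyl-CoA, and FASN builds the saturated chain, with NADPH as the reductant. SCD places a double bond in stearic and other acids and so provides much of the oleic acid of milk. BDH1 interconverts 3-hydroxybutyrate and acetoacetate in mitochondria, and AACS activates acetoacetate in the cytosol for lipid and sterol synthesis.

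Expression was measured by digital gene expression (DGE), in which a tag of 21 bases, the 4 bases CATG and the 17 that follow, stands for a transcript. Levels are given in TPM, the tags of a gene for each 1000000 clean tags of the library. Values in series run from the dry period (−35 d) through the prepartum library (−7 d) to the postpartum one (+3 d). Clean tags numbered 5914422, 5593237 and 5845821, and the lists held 8662, 8363 and 8359 genes. A tag count does not grow with transcript length, but tags that match several genes were left out, which can lower a gene by an amount not measured here, so that orders between genes are orders of tag counts. Ranges in parentheses after levels, folds and ratios are 95% intervals that cover counting error only, and copies made by PCR are not independent molecules. A gene was called upregulated or downregulated when the Audic-Claverie exact test gave a false discovery rate (FDR) of at most 0.001 over all genes tested and the TPM differed at least 2-fold. This test compares libraries and not cows or conditions.

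The share of clean tags held by the milk protein genes CSN1S1, CSN1S2, CSN2, CSN3 and PAEP was 0.348%, 4.13% and 22.6%. Within a fixed total, this growth leaves fewer tags for all other genes. The median log2 ratio of genes averaging 5 TPM or more was −0.16 in stage I, −0.34 in stage II and −0.52 over the whole span. With TMM scaling, which sets the bulk of genes to no difference, the medians were 0.03, −0.03 and −0.02. The scaling also moved the balance of calls. In stage I, 235 genes were called higher and 578 lower with the clean tag totals, and 378 and 350 with TMM. In stage II the counts were 274 and 915, and 516 and 430 with TMM. Over the whole span they were 209 and 1463, and 560 and 444 with TMM. Member ratios are therefore given on both scales where the scale matters.

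The 6 genes together held 4739 tags in the dry period, 20918 prepartum and 6910 postpartum. This was 0.0801%, 0.374% and 0.118% of the clean tags. The summed level was thus highest in the library taken before parturition, and the library of colostrum production stood nearer to that of the dry period. FASN made up 82.4% of the 6-gene sum in the dry period, 75.0% prepartum and 55.2% postpartum. The share of SCD was 9.33%, 21.3% and 39.9%.

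**Figure D1:**
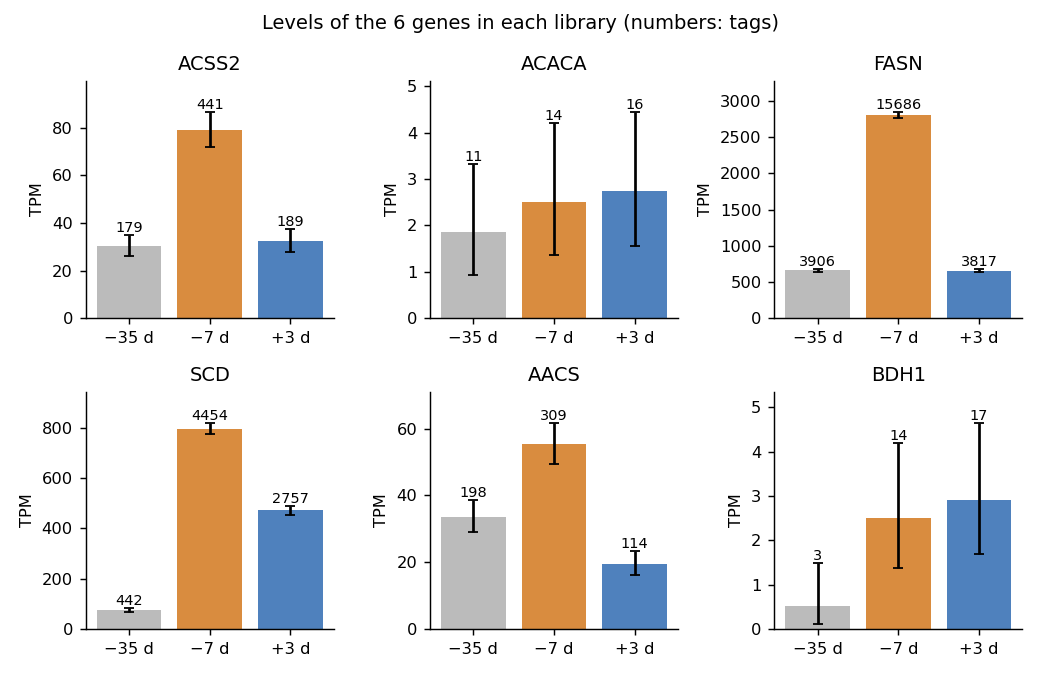
Levels of ACSS2, ACACA, FASN, SCD, AACS and BDH1 in TPM (vertical axes, a separate scale for each gene) in the single libraries of −35 d, −7 d and +3 d (horizontal axes), with 95% counting intervals as error bars and tag counts above the bars. FASN, ACSS2, SCD and AACS have their highest bar at −7 d, while the 3 intervals of ACACA overlap and those of BDH1 overlap between −7 d and each other library only.

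In stage I, 3 of the 6 genes (FASN, ACSS2 and SCD) were upregulated and none was downregulated. Over all 8967 genes tested, 2.62% were called higher and 6.45% lower. In stage II, FASN, ACSS2 and AACS were downregulated and none was upregulated, against 3.12% of 8784 genes called higher and 10.4% called lower. Over the whole span, SCD alone of the 6 was called, as upregulated, where 2.33% of 8988 genes were called higher and 16.3% lower. FASN and ACSS2 belonged to the 112 genes (1.22% of all) that were upregulated in stage I and then downregulated in stage II. SCD was among 104 genes (1.14%) upregulated in stage I and not called in stage II, and AACS among 792 (8.65%) called only as downregulated in stage II. ACACA and BDH1 were called in neither stage, as were 7386 genes (80.7%). Had the pools varied with a coefficient of variation of 0.2, edgeR's exact test would have kept the calls of FASN and SCD in stage I, FASN in stage II and SCD over the whole span. With an assumed 0.4 it kept 0 of the 6 genes in any comparison.

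ACSS2 (NM_001105339.1), the entry point of acetate, had 179, 441 and 189 tags. These were 30.3 TPM (26.0 to 35.0), 78.85 TPM (71.7 to 86.6) and 32.3 TPM (27.9 to 37.3). The −7 d library stood above both others, whose intervals overlapped. ACSS2 was upregulated 2.61-fold (2.18 to 3.12) in stage I, which was the 98th highest ratio among 5493 genes with at least 50 tags in either library. In stage II it was 2.44-fold lower (2.05 to 2.91). This second call did not hold on the TMM scale, where the log2 ratio was −0.98 in place of −1.29. Between +3 d and −35 d the ratio was 1.07 (0.866 to 1.32), and the exact test gave an adjusted p = 0.61. With TMM the same log2 ratio was 0.59, with an adjusted p = 0.000365 in the exact test, but under 2-fold and still short of a call.

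ACACA (NM_174224.2), which makes malonyl-CoA and is a textbook control point of the pathway, was hardly seen. It had 11, 14 and 16 tags, or 1.86 TPM (0.928 to 3.33), 2.50 TPM (1.37 to 4.20) and 2.74 TPM (1.56 to 4.44). It ranked 7128th, 6563rd and 6270th among the listed genes. Its log2 ratio was 0.43 (−0.82 to 1.71) in stage I and its ratio 1.09 (0.50 to 2.42) in stage II, so that a 2-fold rise in either stage lies inside the counting interval. The stage I interval ended at 3.28-fold, under the ratio of FASN, and smaller differences of ACACA were not detectable at this depth. FASN, the next enzyme of the route, had 355 times as many tags as ACACA in the dry period, 1120 times prepartum and 239 times postpartum.

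FASN (NM_001012669.1) was the most abundant of the 6 genes in every library. It had 3906, 15686 and 3817 tags, or 660.4 TPM (639.9 to 681), 2804 TPM (2761 to 2849) and 653 TPM (632 to 674). It ranked 72nd among all genes in the dry period, 11th at −7 d and 50th at +3 d. With the clean tag totals, the level was high before parturition and equal within counting error in the dry period and in early lactation. FASN was upregulated 4.25-fold (4.10 to 4.40) in stage I, the 33rd highest of the 5493 ratios. It was downregulated 4.30-fold (4.15 to 4.45) in stage II, the 100th lowest of 5164. Over the whole span the ratio was 0.989 (0.945 to 1.03), with an adjusted p = 0.69 in the exact test. This last ratio depended on the scaling. The TMM-scaled levels were 563, 2729 and 787 TPM. These put FASN 1.40-fold higher at +3 d than at −35 d, with an adjusted p = 9.67e-47 in the exact test but under the 2-fold limit. Its stage II log2 ratio was −2.10 with the clean tag totals and −1.79 with TMM, a call on both scales.

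SCD (NM_173959.4) showed the steepest rise among the 4 genes with at least 50 tags in every library. It had 442, 4454 and 2757 tags, or 74.7 TPM (67.9 to 82.0), 796 TPM (773 to 820.1) and 472 TPM (454 to 489.6). Both later libraries stood far above the dry period, and +3 d lay between the other libraries. SCD was upregulated 10.7-fold (9.66 to 11.8) in stage I, the 11th highest of the 5493 ratios, and its rank in the library went from 1008th to 58th. In stage II it was 1.69-fold lower (1.61 to 1.77) with an adjusted p = 8.94e-105 in the exact test, but the difference was under 2-fold and not a call. With TMM the log2 ratio of stage II was −0.45 in place of −0.76. Over both stages SCD was upregulated 6.31-fold (5.71 to 6.99), the 36th highest of 5462 ratios.

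AACS (NM_001163929.1) had 198, 309 and 114 tags. Its levels were 33.5 TPM (29.0 to 38.5), 55.25 TPM (49.3 to 61.8) and 19.5 TPM (16.1 to 23.4), with no overlap between the 3 intervals. AACS was highest before parturition, as ACSS2 and FASN were, but lowest at +3 d. In stage I it was 1.65-fold higher (1.38 to 1.98) with an adjusted p = 2.26e-07 in the exact test, short of 2-fold and not a call. In stage II it was downregulated 2.83-fold (2.28 to 3.54), a call that TMM kept with a log2 ratio of −1.19. For the whole span its log2 ratio was −0.78 (−1.13 to −0.44) and not a call. TMM brought this ratio to −0.28, with an adjusted p = 0.18 in the exact test. On that scale +3 d was thus not under −35 d beyond counting error.

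BDH1 (NM_001034600.1) had the fewest tags of the 6 genes in the dry period, though not beyond counting error against ACACA. It had 3, 14 and 17 tags, or 0.51 TPM (0.105 to 1.48), 2.50 TPM (1.37 to 4.20) and 2.91 TPM (1.69 to 4.66). The −35 d count is at the level that a count of 0 allows, 3 tags. The ratio was 4.93 (1.38 to 26.8) in stage I and 1.16 (0.539 to 2.55) in stage II. Neither was a call, and the exact test gave an adjusted p = 0.0166 for stage I. Over the whole span the ratio was 5.73 (1.66 to 30.5), with an adjusted p = 0.00357 and no call. On the TMM scale the exact test gave an adjusted p = 0.00032, which made BDH1 upregulated.

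**Figure D2:**
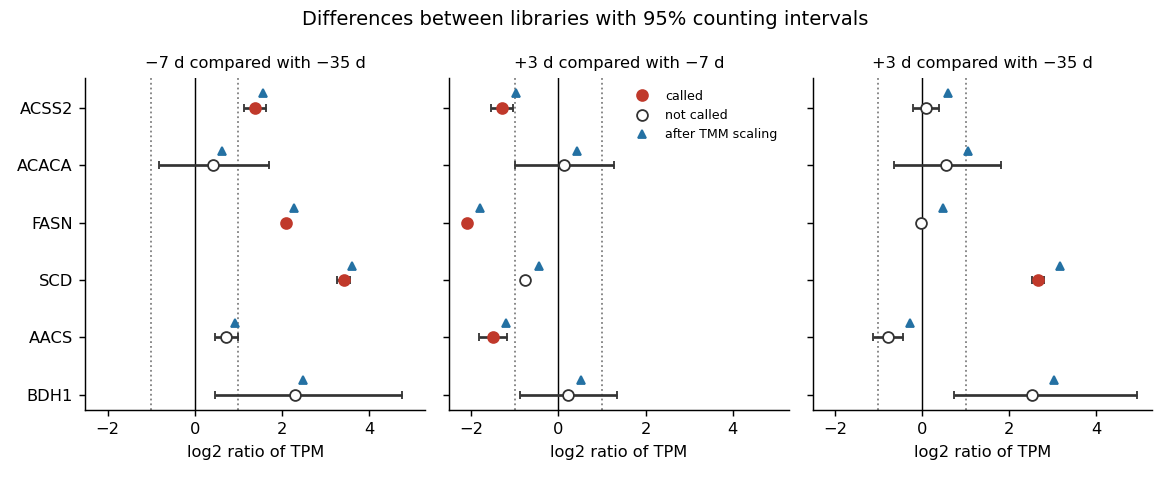
Log2 ratios of TPM (horizontal axes) of the 6 genes (vertical axis) in the 3 comparisons of libraries, with 95% counting intervals as bars, called genes as filled circles, genes not called as open circles and TMM-scaled ratios as triangles. Dotted lines mark 2-fold differences. FASN lies at 2.09 in stage I and −2.10 in stage II, SCD at 3.41 and −0.76, and the TMM triangles lie to the right of the circles in all panels.

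The order of the 6 genes by tag count began with FASN and SCD in every library. AACS and ACSS2 came next, with 111 AACS tags per 100 ACSS2 tags in the dry period (89.9 to 136), 70.1 prepartum (60.4 to 81.2) and 60.3 postpartum (47.4 to 76.5). These neighbours thus did not differ beyond counting error in the dry period, and ACSS2 was the more abundant in both later libraries. ACACA and BDH1 closed the order and did not differ from each other beyond counting error in any library. At −7 d each had 14 tags, and at −35 d BDH1 had 27.3 tags per 100 of ACACA (4.89 to 103).

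Ratios of tags within a library do not depend on the library total or on the scaling. SCD had 11.3 tags per 100 FASN tags in the dry period (10.2 to 12.5), 28.4 prepartum (27.5 to 29.4) and 72.2 postpartum (68.8 to 75.9). The ratio of SCD to FASN rose 2.51-fold (2.26 to 2.79) in stage I and 2.54-fold (2.40 to 2.70) in stage II, 6.38-fold (5.71 to 7.14) from the first to the last library. SCD thus gained on FASN in stage I, when both were upregulated, and again in stage II, when both had lower levels. ACSS2 had 4.58 tags per 100 FASN tags in the dry period (3.92 to 5.32), 2.81 prepartum (2.55 to 3.09) and 4.95 postpartum (4.26 to 5.73). The ACSS2 ratio dipped at −7 d and at +3 d was back within counting error of its dry period value, 1.08 times as high (0.872 to 1.34). AACS had 5.07 tags per 100 FASN tags in the dry period (4.37 to 5.85), 1.97 prepartum (1.75 to 2.20) and 2.99 postpartum (2.46 to 3.60). Here the ratio at +3 d remained under that of −35 d, at 0.589 times (0.462 to 0.749). Acetate and acetoacetate activation also parted, as AACS per ACSS2 tag was 0.545 times (0.396 to 0.751) its dry period value at +3 d. The step from −7 d to +3 d of that ratio, 0.861 times (0.647 to 1.14), was within counting error. SCD per AACS tag stood furthest from its start among the ratios of FASN, ACSS2, SCD and AACS, 10.8 times higher (8.36 to 14.1) at +3 d than at −35 d. Of the 15 pairs of members, 8 had a ratio whose interval of change left out 1 in stage I, 11 in stage II and 10 between −35 d and +3 d, with no adjustment for the number of pairs.

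**Figure D3:**
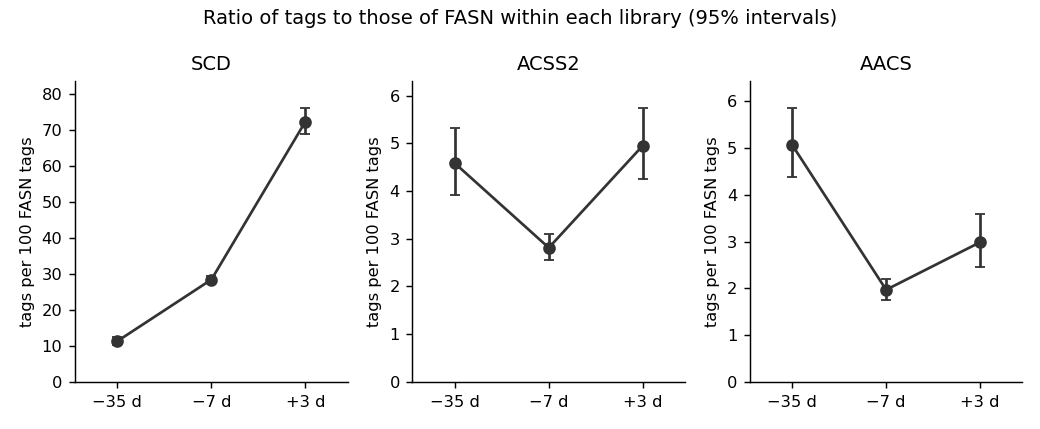
Tags of SCD, ACSS2 and AACS per 100 FASN tags of the same library (vertical axes, a separate scale for each gene) at −35 d, −7 d and +3 d (horizontal axes), with 95% counting intervals. The SCD ratio climbs from 11.3 to 28.4 and 72.2, while ACSS2 and AACS have their lowest ratio at −7 d, at 2.81 and 1.97.

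Genes that work beside the 6 enzymes were taken from 6 lists with 90 measured genes in all. In stage I, 9 of the 90 (10%) were upregulated and 2 (2.22%) downregulated, against 2.62% and 6.45% of all genes tested. In stage II none was upregulated and 21 were downregulated, and over the whole span the counts were 2 and 14. Of all genes, 3.12% were called higher in stage II. Over the whole span 2.33% of all genes and 2.22% of the 90 were called higher. With TMM, the counts were 11 higher and 1 lower in stage I, 2 and 12 in stage II, and 5 and 5 over the whole span. With the clean tag totals, the share of the 90 called lower was 23.3% in stage II, where 10.4% of all genes were. Over the whole span it was 15.6%, near the 16.3% of all genes. The shares of all genes include genes with few tags, whereas 81 of the 90 had at least 10 tags in each library. Among genes averaging 5 TPM or more, 838 of 5730 were called lower in stage II and 1305 of 5906 over the whole span. In stage I, 219 of 5971 such genes were called higher and 488 lower. The lists are described by their counts and medians beside the medians over all genes tested, which were −0.21, −0.30 and −0.54 in the 3 comparisons on the log2 scale with 0.5 tags added. Over the whole span, medians of the lists ran from −0.97 for partners of chain synthesis to −0.31 for ketone body metabolism. No test of a list was made.

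Partners of chain synthesis held 11 measured genes. In stage I 2 were upregulated (THRSP and DBI), in stage II 5 were downregulated, and the median log2 ratios were 0.08 and −1.07. THRSP, a small protein that promotes lipogenesis and pairs with MID1IP1, had 19.6, 61.0 and 2.74 TPM. Its log2 ratio was 1.64 in stage I and −4.48 in stage II, so that it peaked with FASN but ended far under its dry period level, at −2.84. MID1IP1, a protein that promotes polymerisation of acetyl-CoA carboxylase, had 14.2, 14.7 and 4.62 TPM and was downregulated in stage II (−1.67). DBI, which binds acyl-CoA, had 71.2, 154 and 62.3 TPM and followed the rise and fall of ACSS2 (1.11 and −1.31), although the second call was lost with TMM. CBR4, of mitochondrial fatty acid synthesis, and ACSS3, a mitochondrial acyl-CoA synthetase, were downregulated in stage II (−1.38 and −1.08), ACSS3 not with TMM. ACLY, which makes cytosolic acetyl-CoA from citrate, had 22.7, 27.2 and 16.1 TPM and was not called.

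Of 17 genes of elongation and desaturation, none was called in stage I and 4 were downregulated in stage II, with medians of 0.14 and −0.81. SCD5, the second stearoyl-CoA desaturase of cattle, had 275, 264 and 98 tags, or 46.5, 47.2 and 16.8 TPM. It was level in stage I (0.02) and downregulated in stage II (−1.49). At −35 d SCD had 442 tags against these 275 of SCD5, and at +3 d 2757 against 98. CYB5A, the cytochrome that passes electrons to desaturases, had 143, 226 and 77.0 TPM and was downregulated in stage II (−1.55). HSD17B12, the ketoacyl reductase of elongation, and HACD2, a dehydratase of elongation, were also downregulated in stage II (−1.92 and −1.13), HACD2 not with TMM. With TMM, FADS2, a desaturase of polyunsaturated chains, and TECR, the last reductase of elongation, were called higher in stage I (2.22 and 1.14). ELOVL5, an elongase of polyunsaturated chains, was called over the whole span alone (−1.10), and not with TMM.

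Of 12 genes that supply NADPH and cytosolic acetyl-CoA, none was called in stage I and 2 were downregulated in stage II, with medians of −0.01 and −0.63. TALDO1, a transaldolase of the pentose phosphate pathway, had 257, 379.9 and 86.9 TPM and was downregulated in stage II (−2.13). TKT, the transketolase, had 159, 205 and 95.5 TPM and was downregulated in stage II with the clean tag totals (−1.10), not with TMM. HK1, a hexokinase, was called lower over the whole span (−1.23), again not with TMM. SLC2A1, a glucose transporter, was called higher over the whole span with TMM alone. IDH1, the main cytosolic source of NADPH in the ruminant udder, had 345, 338 and 200.5 TPM and was not called.

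Ketone body metabolism held 8 measured genes, with 1 upregulated in stage I, 1 downregulated in stage II, and medians of 0.29 and −0.46. The upregulated gene was SLC16A1, a transporter of lactate, ketone bodies and other monocarboxylates, with 24.7, 82.1 and 65.7 TPM. Its log2 ratio of 1.73 in stage I was followed by −0.32 in stage II, so that it stayed upregulated over the whole span (1.41), as SCD did. ACAT2, the cytosolic thiolase that makes acetoacetyl-CoA, had 12.3, 15.9 and 4.96 TPM and was downregulated in stage II (−1.68), the direction of AACS. OXCT1, which activates acetoacetate in mitochondria, had 8.12, 7.69 and 6.50 TPM and was not called.

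Among 23 regulators of lipogenic enzymes, 2 were upregulated and 2 downregulated in stage I, and 1 was downregulated in stage II, with medians of −0.20 and −0.24. SREBF1, the transcription factor of fatty acid synthesis genes, had 58.0, 147 and 92.0 TPM. It was upregulated in stage I (1.34), with −0.68 and no call in stage II. INSIG1, which retains SREBP precursors in the endoplasmic reticulum, had 40.2, 94.9 and 65.0 TPM with the same calls (1.24 and −0.55). Over the whole span, SREBF1 and INSIG1 were not called with the clean tag totals (0.67 and 0.69) and were upregulated with TMM (1.16 and 1.19). FBXW7, part of a ubiquitin ligase with SREBPs among its substrates, was downregulated in stage II (−1.14), though not with TMM. NR1H3, the liver X receptor alpha, and AKT1, a kinase of insulin signalling, were downregulated in stage I (−1.39 and −1.11), AKT1 not with TMM. In stage II, NR1H3 had a log2 ratio of 1.06 and was called higher with TMM alone (1.37). PPARG, a nuclear receptor of adipocytes and lipid storage, had 2.87, 4.29 and 9.75 TPM and was upregulated over the whole span (1.76), and with TMM also in stage II (1.49). MBTPS1, a protease that cleaves SREBPs, was downregulated over the whole span (−1.37), not with TMM.

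The 19 sterol genes that SREBF2 is known to drive held 4 upregulated in stage I and 8 downregulated in stage II, with medians of 0.41 and −1.11. SREBF2 itself had 2 tags in the dry period and was not listed in either later library, so its own change was not measured. SQLE, HSD17B7 and FDPS were called in both stages, as FASN and ACSS2 were. SQLE, the squalene epoxidase, had 113, 271 and 72.5 TPM, with log2 ratios of 1.26 and −1.90. HSD17B7, of cholesterol synthesis, had 55.1, 137 and 51.8 TPM (1.31 and −1.40). FDPS, the farnesyl diphosphate synthase, had 31.3, 72.4 and 33.5 TPM (1.21 and −1.11). The stage II call of FDPS was lost with TMM. CYP51A1, MVD, MVK and IDI1, further enzymes of this route, were downregulated in stage II alone of the stages (−1.81, −1.58, −1.21 and −1.12), the last pair not with TMM.

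**Figure D4:**
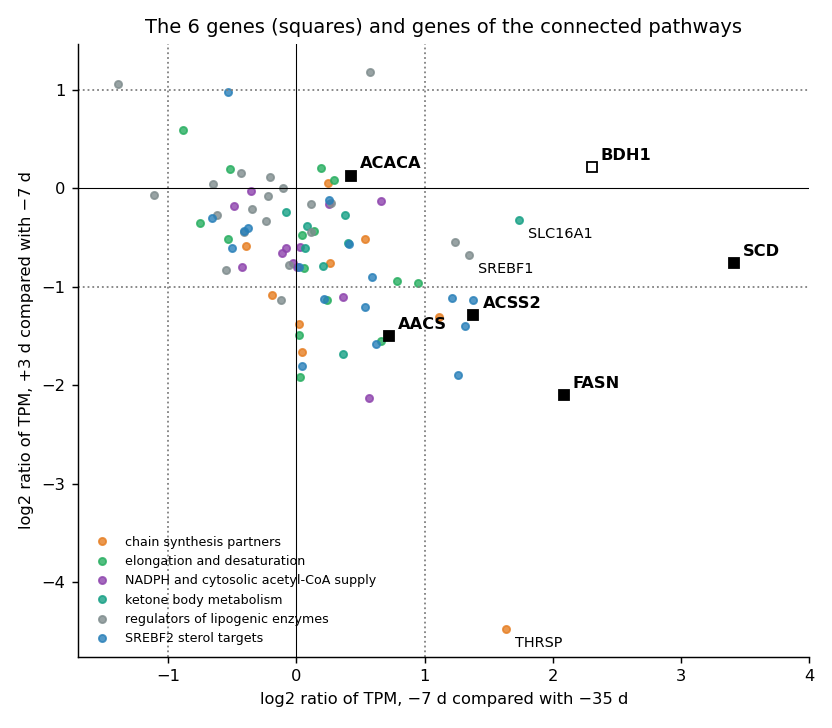
Log2 ratio of TPM in stage I (−7 d against −35 d, horizontal axis) and in stage II (+3 d against −7 d, vertical axis) for the 6 genes (black squares, open for BDH1, which had 3 tags at −35 d) and for the 81 of 90 pathway genes with at least 10 tags in each library (circles, coloured by list). Both axes use the −7 d library, and dotted lines mark 2-fold differences. FASN and ACSS2 lie beyond both 2-fold lines at the lower right, as do DBI, THRSP and some of the sterol genes. SCD lies furthest to the right at 3.41, and THRSP lies lowest at −4.48.

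Genes whose pair of stage ratios was nearest to that of a member were sought among 4241 genes with at least 50 tags in all 3 libraries, by the Euclidean distance between the pairs of log2 ratios. Nearest to FASN were a serotransferrin-like gene (LOC525947, distance 0.149), KHDRBS3 (0.330), TFF3 (0.416), CTPS (0.472) and EMID1 (0.523). Near to ACSS2 were MOSC1 (0.0485), HSD17B7 (0.135), GSTM3 (0.167) and PRDX3 (0.187), of which HSD17B7 is a sterol gene of the list above. SCD had no near companion, but its stage I ratio was the 11th highest of 5493, so that few genes lay at such ratios. The closest to SCD were NME1-NME2 (1.05), PLIN2 (1.42), the coat protein of lipid droplets, PIGR (1.47) and ABCC5 (1.64). AACS had many close ones, led by C14H8orf33 (0.0616), ALG8 (0.0671), SNRPA (0.0746), CYB5A (0.0786) and ANK3 (0.0864). Each distance rests on 3 libraries.

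The nearest measured genes on the chromosome, by the gene order of assembly ARS-UCD2.0, were set beside the members that were called. Beside FASN, SLC16A3 had 25, 25 and 20 tags and GPS1 321, 290 and 224, and neither was called in any comparison. Beside SCD, CHUK had 128, 122 and 70 tags with no call, and NDUFB8 had 80, 31 and 19 and was downregulated in stage I (−1.29). Neither neighbour of FASN or SCD was called higher in stage I, a call that only 2.62% of all genes tested had. On each side of FASN 1 unmeasured gene lay in between, and 4 lay between SCD and CHUK and 2 between SCD and NDUFB8. Beside ACSS2, GGT7 had 21, 11 and 17 tags with no call, whereas GSS, the glutathione synthetase, had 48, 122 and 160 and was upregulated in stage I (1.43). Beside AACS, SLC15A4 was downregulated in stage I (−1.03). BRI3BP, with 13, 32 and 2 tags, was called lower in stage II, as were AACS and 10.4% of all genes tested.

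Adipocytes also express FASN, SCD and ACACA, so markers of the cell types of the biopsies were summed. The 12 adipocyte markers summed to 430.5 TPM in the dry period, 323 prepartum and 753 postpartum. This sum was lowest in the library where FASN, ACSS2, SCD and AACS were highest. In stage I, 2 of the 12 were downregulated, 0 of them with TMM, and in stage II 4 were upregulated on both scales. ADIPOQ, the adipocyte hormone adiponectin, had 5.07, 4.83 and 2.74 TPM and was not called, FABP4 had 153, 91.4 and 244 TPM, and PLIN4 had 2 tags in the dry period and was not listed in either later library. LPL, which mammary epithelium also expresses in lactation, had 35.2, 38.3 and 172 TPM and was part of the rise at +3 d. The 4 markers upregulated in stage II were LPL, FABP4, AOC3 and CFD. Over the whole span, 7 of the 12 had a log2 ratio above 0 and 5 below. CIDEC, PLIN1 and RETN were among the 5, at −0.68, −0.57 and −1.44 (−0.19, −0.07 and −0.94 with TMM), with no call. RETN had 11, 2 and 4 tags. In stage I CIDEC was level (0.07), whereas the sum was lower.

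The 11 luminal epithelium markers summed to 2379, 1702 and 1511 TPM, so that the members' stage I rise came with a lower epithelial sum. On the TMM scale the sums were 2029.6, 1656 and 1820.0 TPM, lower in stage I and higher in stage II. Of these 11, 2 were downregulated in stage I (1 with TMM) and 1 in stage II (0 with TMM). In stage I, 8 of the 11 had a ratio below 0 and 3 above. ELF5, the gene called in stage II (−1.19), was among the 3, with 271, 353 and 155 TPM. GRHL2, with 2 tags in each earlier library, was not listed at +3 d. The 10 smooth muscle and myoepithelium markers summed to 1029, 649.9 and 1437 TPM. In stage I, 2 were downregulated, KRT5 (−1.96) and ACTA2 (−1.15), the latter not with TMM. In stage II, in which FASN, ACSS2 and AACS were downregulated, 5 of these markers were upregulated (6 with TMM). Over the whole span 4 were upregulated and 1, KRT5, was downregulated (−1.36), KRT5 not with TMM. The 9 endothelium markers summed to 232, 235 and 325 TPM with 1 upregulated in stage II, and none of the 9 was at 0. In stage I, 7 of the 9 had a log2 ratio below 0 (median −0.50) and 2 above. The largest of them, ENG, rose from 96.5 to 129 TPM. KDR was downregulated over the whole span (−1.14), not with TMM. The 9 macrophage markers, of which MSR1 was counted under 2 accessions, summed to 399, 295 and 506 TPM, with 3 downregulated in stage I on both scales and 3 upregulated in stage II (4 with TMM). The part of these shifts in the members' ratios was not tested.

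**Figure D5:**
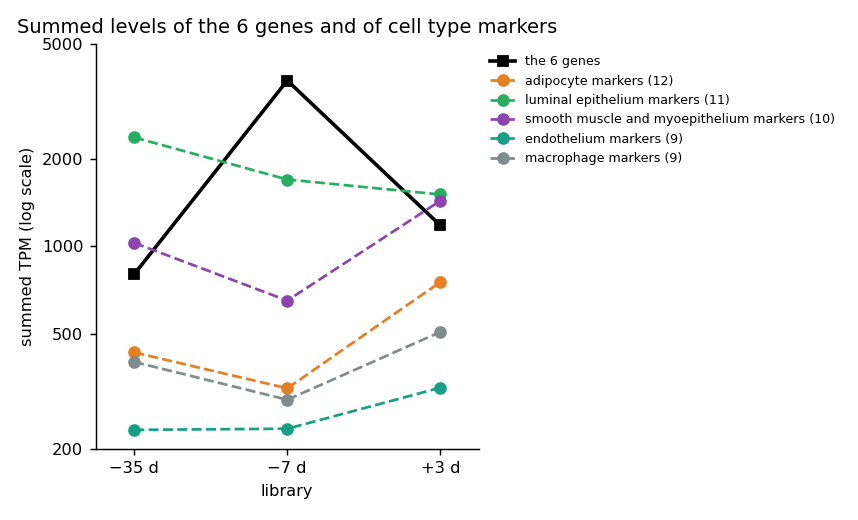
Summed TPM (vertical axis, log scale) of the 6 genes (squares) and of the markers of 5 cell types (circles, number of genes in the legend) in the libraries of −35 d, −7 d and +3 d (horizontal axis). The 6-gene sum is highest at −7 d, at 3740 TPM against 801 and 1182, whereas the adipocyte, smooth muscle and macrophage sums are lowest there, at 323, 649.9 and 295 TPM.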

How the data were processed

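DGE libraries from pooled mammary tissue, 1 per time point, were read from the gene tables of the 3 samples. Per the study's methods, the authors removed adaptor tags, tags with unknown bases, of the wrong length or with 1 copy, allowed 1 mismatch when matching the remaining clean tags to bovine transcripts (build UMD 3.1), and left out tags of several genes. The deposited counts are the unambiguous clean tags summed on each gene and the copies of each distinct clean tag. The deposited TPM values are the tags of a gene for each 1000000 clean tags, and dividing counts by the summed clean tags gave them within 0.0050 TPM. Where a library's table lacked a gene, its count was set to 0. Depth was 5593237 to 5914422 clean tags, at which 3 tags, the limit a count of 0 allows, are 0.507 to 0.536 TPM.

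Tables were joined by accession, and 7905 of 9154 genes were matched to a symbol of the RefSeq annotation of ARS-UCD2.0, used for names and gene order alone. Pairs of libraries were compared with the Audic-Claverie exact test on counts, 2 tails, with Benjamini-Hochberg adjustment over all genes with a tag in either library, and a log2 ratio of at least 1, with 0.01 TPM in place of 0. Intervals of levels are Poisson intervals and those of ratios exact binomial or conditional intervals at 95%. The Audic-Claverie test and the binomial intervals of ratios were checked on simulated Poisson counts. Such counts hold no variation among pools, so the check does not cover it. Alternatives were edgeR's TMM factors, DESeq2's size factors, totals without genes over 1% of clean tags, totals of listed genes and Fisher's exact test. Further alternatives were a coefficient of variation assumed to be 0.2 or 0.4 in edgeR's exact test, a threshold of 3-fold, at least 5 TPM on average, and adding 0.5 tags.

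The members, lists and tests were chosen with earlier results of these data known. Named genes are the 6 members, every called gene of a list up to 8, and the 5 genes nearest to each member with at least 50 tags in every library. ACLY, IDH1, OXCT1, SREBF2 and the list genes called with TMM alone fall outside this rule and were chosen after their values were seen. The named markers and the chromosomal neighbours also fall outside this rule and were chosen in the same way. The deposited summary of mapping classes was not used here, since its columns could not be tied to the sample titles. Some genes that this rule names are left out of the report. No tag sequences of the members were matched, because no transcript sequence was at hand. Computation used R 4.3.3 (DESeq2 1.42.0, edgeR 4.0.16) and Python 3.11.15 (pandas 2.3.3, matplotlib 3.10.9, scipy 1.17.1, numpy 2.4.6).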

Additional observations from a re-analysis of the deposited data

How the results depend on the processing

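With 1 library per time point, p-values measure counting error between pools, and no left-out library could be tried. No paired analysis was possible because no time point has more than 1 library. Of 174 values of 18 member ratios under 10 alternatives, 147 kept direction and side of the threshold, 16 lost a call, 5 gained one and 6 changed sign. The calls of members were 3, 3 and 1 in stage I, stage II and the whole span. An assumed coefficient of variation of 0.4 left 0 in each of the 3 comparisons by edgeR's exact test, although all 3 members called in each stage and SCD over the whole span passed the Audic-Claverie test. With 0.2 it left FASN and SCD in stage I, 1 (FASN) in stage II and SCD overall. A 3-fold threshold left 1 in stage II (FASN). Over the whole span, TMM, DESeq2 size factors and totals without genes over 1% each gave 2 calls (SCD and BDH1, both higher), and totals of listed genes also gave 2 (SCD higher, AACS lower). In stage II the listed-gene totals added SCD (−1.11), while TMM, DESeq2 size factors and totals without genes over 1% lost ACSS2 (−0.98, −0.96 and −0.98). The log2 ratio of FASN over the whole span, −0.02, became 0.48 with TMM, 0.50 with DESeq2 size factors and 0.35 without genes over 1%. With listed-gene totals, ACSS2 in that comparison became −0.29, and in stage II ACACA became −0.23 and BDH1 −0.14. These shifts follow from the totals alone, which move all genes by 1 amount. Over all genes, calls higher and lower were 27 and 27, 65 and 95, and 54 and 102 with a coefficient of variation of 0.2, and 2 and 1, 6 and 2, and 13 and 1 with 0.4. A 3-fold threshold gave 97 and 220, 128 and 312, and 125 and 534, and listed-gene totals 147 and 1906 in stage II and 121 and 2898 overall. With a minimum mean of 5 TPM, ACACA and BDH1 had no value.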
